A study of Mus musculus with 19 samples.

Results

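The genes described here are 9 markers of the alveolar type I (AT1) cell, *Ager*, *Hopx*, *Aqp5*, *Pdpn*, *Cav1*, *Emp2*, *Akap5*, *Rtkn2* and *Clic5*. They were chosen by gene symbol from the 53558 genes listed for each library, and all 9 were among the 13986 genes with enough reads to be tested. AT1 cells are the thin, flat cells that cover most of the gas exchange surface of the lung. Alveolar type II (AT2) cells are cuboidal, make surfactant and act as progenitors that renew AT1 cells after injury. The question was whether tumors with lower levels of many AT2 genes carried higher levels of AT1 markers as a set or of single ones.

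The libraries came from neoplastic cells of *Rosa26* LSL-tdTomato;*H11* LSL-Cas9 mice, aged 6 to 12 weeks when the tumors were started. Cre delivered by lentivirus into the airways switched on tdTomato and Cas9 together in each transduced cell, so every group shared these alleles. The 7 sgInert libraries carried 3 guide RNAs without a mouse target (sgNeo1, sgNT1 and sgNeo2), the 7 sgCebpa/b/d libraries carried guides against the C/EBP transcription factor genes *Cebpa*, *Cebpb* and *Cebpd*, and the 5 sgLkb1 libraries carried a guide against *Lkb1* (*Stk11* in the files). Tumors grew for 17 weeks, and CD31, CD45, F4/80 and Ter119 antibodies were used to exclude endothelial and blood cells before RNA-seq. Guide-induced edits differ from cell to cell, so each library is a mixture of edited and unedited alleles.

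Some libraries shared an animal. The titles gave 6 animal numbers for the 7 sgInert libraries, while 4 sgCebpa/b/d libraries came from 2 animals and 3 sgLkb1 libraries from 2 animals. The other 3 sgCebpa/b/d and 2 sgLkb1 libraries had titles with no animal number. In sgInert, 4 libraries had numbers beginning with ZR and 3 with MT, and in the other groups all numbers began with MT. All sgLkb1 libraries were female, against 4 of 7 sgCebpa/b/d and 3 of 7 sgInert libraries. The 4 MT-numbered sgCebpa/b/d libraries were female and the 3 without a number were male. In that group, the kind of title and sex therefore cannot be told apart. Libraries held 2760722 to 9944131 expected counts. The levels of *Stk11* did not overlap between sgLkb1 and sgInert and were lower in sgLkb1 (log2 fold change -1.24, edgeR adjusted p = 0.000107). The guided C/EBP genes were not called lower in sgCebpa/b/d libraries, with log2 fold changes of 0.73 for *Cebpa* (called higher, adjusted p = 0.00148), 1.16 for *Cebpb* and 0.20 for *Cebpd*. Among libraries with MT numbers alone *Cebpb* was at -0.25 and *Cebpd* was called lower at -0.78 (adjusted p = 0.00369). Small insertions and deletions can inactivate a gene without lowering its read count.

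In what follows a level is given either as TPM (a share of a library's transcripts corrected for gene length, which allows genes to be compared) or as log2 CPM (a share of a library's reads on a log2 scale, for one gene across libraries). A gene was called when the Benjamini-Hochberg adjusted p of edgeR's quasi-likelihood test over all 13986 genes was under 0.05, and a log2 fold change is the fitted difference between groups. The 3 comparisons share libraries, so their values stand side by side and are not independent of each other.

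The 9 genes encode proteins of different kinds. *Ager* (GRCm38 chr17:34597862-34600936) encodes the receptor RAGE, which is abundant on the basolateral membrane of AT1 cells. *Pdpn* (chr4:143267431-143299564) encodes podoplanin, the mucin-like surface protein also known as T1alpha, which lymphatic endothelium, mesothelium and some fibroblasts make too. *Aqp5* (chr15:99590782-99594829) encodes an apical water channel. *Clic5* (chr17:44188584-44280172) encodes a chloride intracellular channel family protein that associates with the actin cortex. *Cav1* (chr6:17306335-17341452) encodes caveolin-1, the coat protein of caveolae, which is also abundant in endothelial cells and fibroblasts. *Emp2* (chr16:10281749-10313968) encodes a tetraspan membrane protein, which endothelial cells make too. *Akap5* (chr12:76324891-76334153) encodes an anchoring protein for protein kinase A, and *Rtkn2* (chr10:67979570-68059740) encodes rhotekin 2. *Hopx* (chr5:77086988-77115121) encodes a homeodomain-only protein without DNA binding that acts as a transcriptional cofactor. In the annotation, *Hopx* shares exon bases with *Hopxos* on the opposite strand, and *Rtkn2* with *Gm16212* on the opposite strand; the other 7 genes share exon bases with no other gene.

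The promoter windows of *Hopx*, *Pdpn* and *Ager* are printed because *Hopx* and *Pdpn* gave the largest fold changes among the 9 genes and *Ager* encodes one of the most widely used AT1 surface markers. Each is the RefSeq reference for GRCm38.p6, from 250 bases before to 50 bases after an annotated start, 5′ to 3′ on the strand of the gene. *Hopx* has 2 annotated starts, at chr5:77095218-77095517 and chr5:77115074-77115373 on the minus strand, and the window of *Pdpn* is chr4:143299515-143299814 on the minus strand and that of *Ager* chr17:34597600-34597899 on the plus strand. Capitals mark a match to a motif searched.
*Hopx*, first window: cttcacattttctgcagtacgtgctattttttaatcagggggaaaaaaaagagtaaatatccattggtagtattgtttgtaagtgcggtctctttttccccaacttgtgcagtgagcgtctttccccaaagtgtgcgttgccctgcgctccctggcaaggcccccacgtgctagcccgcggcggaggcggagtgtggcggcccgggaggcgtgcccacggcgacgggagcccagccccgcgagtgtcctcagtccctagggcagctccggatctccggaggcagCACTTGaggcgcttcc
*Hopx*, second window: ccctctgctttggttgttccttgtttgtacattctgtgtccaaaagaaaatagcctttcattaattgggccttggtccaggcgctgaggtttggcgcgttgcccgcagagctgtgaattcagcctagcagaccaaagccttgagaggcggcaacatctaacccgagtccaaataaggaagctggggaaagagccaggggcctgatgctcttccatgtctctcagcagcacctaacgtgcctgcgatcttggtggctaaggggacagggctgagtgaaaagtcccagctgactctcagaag
*Pdpn*: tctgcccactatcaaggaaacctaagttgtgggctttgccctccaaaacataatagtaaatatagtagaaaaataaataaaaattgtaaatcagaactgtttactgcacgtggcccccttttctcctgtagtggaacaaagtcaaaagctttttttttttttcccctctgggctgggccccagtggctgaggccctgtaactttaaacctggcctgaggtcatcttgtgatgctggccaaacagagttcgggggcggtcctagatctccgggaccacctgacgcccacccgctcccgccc
*Ager*: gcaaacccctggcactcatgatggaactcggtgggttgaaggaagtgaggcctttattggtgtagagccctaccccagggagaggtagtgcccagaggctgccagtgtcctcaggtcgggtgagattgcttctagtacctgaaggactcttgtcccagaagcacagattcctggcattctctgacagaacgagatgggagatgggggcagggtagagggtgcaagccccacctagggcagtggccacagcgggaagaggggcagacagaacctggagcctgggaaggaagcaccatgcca
Motifs were searched as exact letters on both strands in 10 windows of the 8 genes with an entry. The C/EBP sequence TTGCNNAA was in 0 of the 10 windows, and in 10.8% of all 32851 mouse promoter windows of the same length. TTGCGCAA, a subset of it, was in 0 of 10 and in 0.183% of all. CATTCC, the core bound by TEAD factors, was in 0 of 10 and in 14.7% of all. CAAGTG, the core bound by NKX2-1, was in 1 of 10 and in 13.6% of all. That match lay in the first *Hopx* window, on the opposite strand, where it reads CACTTG from the base 34 bases after the start site. These counts describe the letters of these windows only.

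The 9 genes fell into a high and a low set by TPM. In sgInert tumors the mean level was 165 TPM ± 35.8 (SD, n = 7) for *Aqp5*, 152 ± 20.4 for *Ager*, 149 ± 23.3 for *Emp2*, 143 ± 45.2 for *Hopx* and 110 ± 27.5 for *Clic5*, and the ranges of neighbours in this order overlapped. A gap followed, with *Akap5* at 29.0 TPM ± 9.56, *Cav1* at 20.8 ± 3.65, *Pdpn* at 12.1 ± 5.90 and *Rtkn2* at 3.11 ± 2.83 (SD, n = 7 each). The ranges of *Clic5* and *Akap5* did not overlap, whereas those of the neighbours below *Akap5* did. Among the sgCebpa/b/d tumors *Hopx* stood first at 506 TPM ± 236 (SD, n = 7) and *Pdpn* had moved from eighth to sixth at 70.0 ± 12.8, next to *Akap5* at 63.3 ± 12.6, with overlapping ranges. In sgLkb1 tumors *Hopx* also stood first at 326 TPM ± 70.4 (SD, n = 5), followed by *Emp2* at 235 ± 39.8, and *Pdpn* stayed eighth at 22.6 ± 15.2. Summed over the 9 genes, levels ran from 628 to 928 TPM in sgInert (median 741), from 1114 to 1957 in sgCebpa/b/d (median 1512), and in sgLkb1 from 1068 to 1332 (median 1290.45). The sums in both targeted groups lay above every sgInert library. On the TPM scale the median gene was also higher in sgLkb1 than in sgInert, by 0.18 in log2(TPM + 1). In the edgeR fit of counts that median was -0.01. For scale, 13 AT2 genes summed to 80749.7 to 102855 TPM in sgInert, 35237 to 67960.02 in sgCebpa/b/d, and in sgLkb1 51894 to 70816, so the AT1 markers remained a small part of the epithelial RNA in all 3 groups. In RNA from pooled cells, fewer cells of a type and less RNA per cell cannot be told apart.

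**Figure D1:**
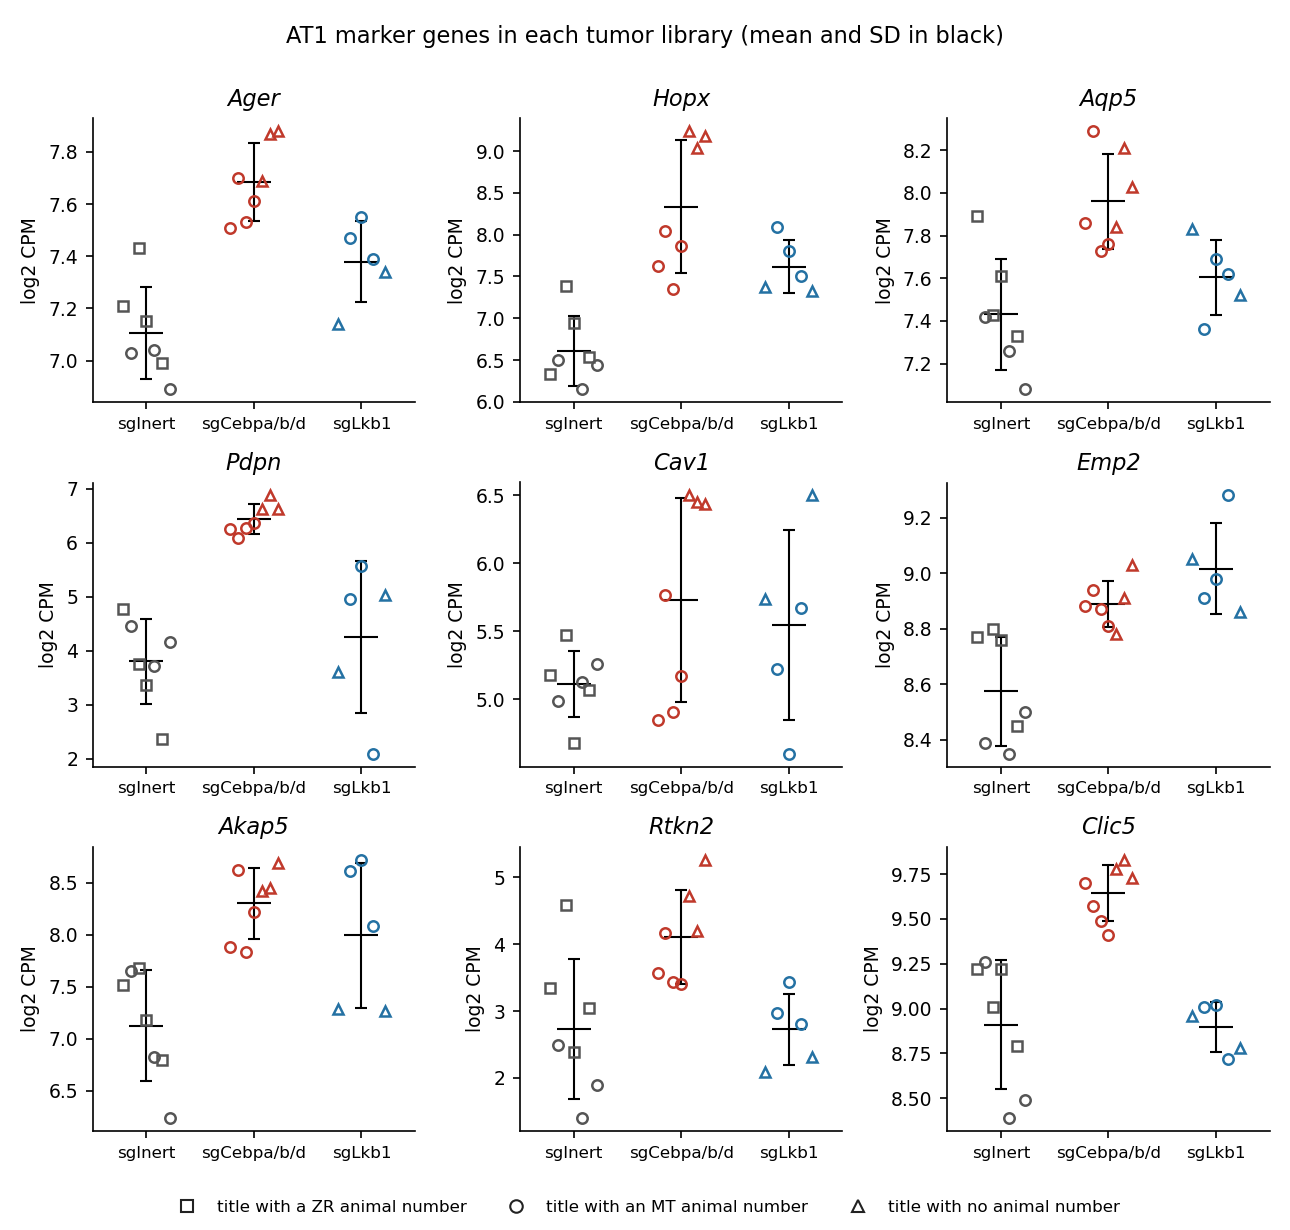
Level of each AT1 marker gene in each library (log2 CPM, 1 panel per gene with its own axis) by group, with the group mean and SD in black and the marker shape giving the kind of library title. All 7 sgCebpa/b/d libraries lie above every sgInert library for *Ager*, *Pdpn*, *Akap5* and *Clic5*. The share of all genes tested without such overlap is not given here. The sgCebpa/b/d libraries with no animal number are the 3 highest of their group for *Hopx*, *Cav1*, *Pdpn*, *Rtkn2* and *Clic5*.

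In sgCebpa/b/d tumors, AT1 markers rose broadly relative to sgInert. Of the 9 genes, 7 rose and 0 fell, with the largest increases for *Pdpn* (5.75-fold) and *Hopx* (3.63-fold) and smaller ones for *Akap5* (2.18-fold), *Clic5* (1.63-fold), *Ager* (1.49-fold), *Aqp5* (1.44-fold) and *Emp2* (1.24-fold). Over all genes tested, 4.73% were called higher and 5.36% lower. *Cav1* and *Rtkn2* did not pass, with log2 fold changes of 0.77 and 1.23. The median log2 fold change of the 9 was 0.77, and that of all genes tested 0.02. All 9 fold changes were positive, against 52.4% of the genes tested.

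In sgLkb1 tumors, 2 of the 9 rose relative to sgInert, *Akap5* (1.89-fold) and *Emp2* (1.36-fold), and 0 fell. Over all genes tested, 2.81% were called higher and 2.97% lower. *Hopx* was next, 1.98-fold higher with an adjusted p of 0.0517 by edgeR. The median log2 fold change of the 9 was 0.44, and that of all genes tested -0.01. The fold changes of *Rtkn2* and *Clic5* were below 0, at -0.28 and -0.05. The direct comparison of sgCebpa/b/d with sgLkb1 called 2 of the 9, *Pdpn* (3.52-fold) and *Clic5* (1.68-fold), both higher in sgCebpa/b/d. In that comparison 2.83% of the genes tested were called higher and 3.12% lower, and the median log2 fold change was 0.36 for the 9 genes and 0.03 for all.

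**Figure D2:**
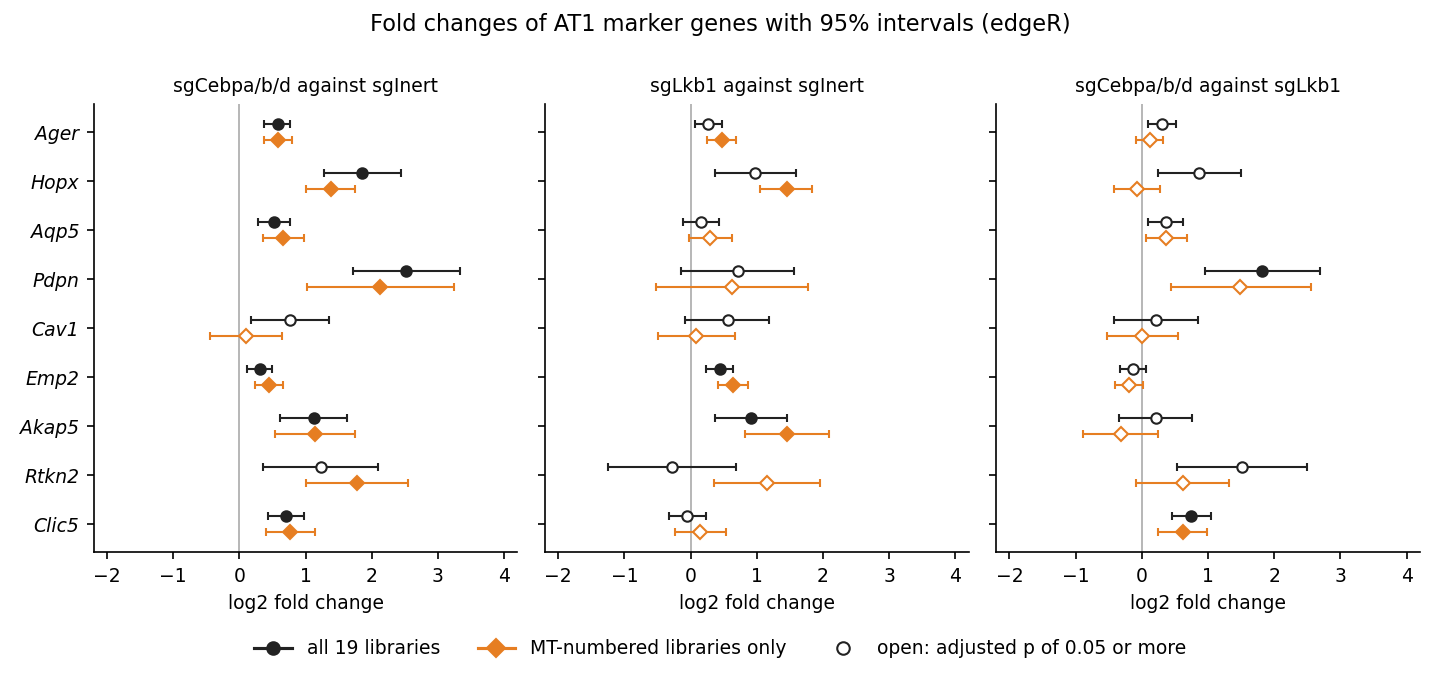
Log2 fold change of each AT1 marker gene with its 95% interval in the 3 comparisons, from all 19 libraries (black circles) and from the libraries with MT animal numbers only (orange diamonds), filled where the adjusted p was under 0.05. In sgCebpa/b/d against sgInert, all 9 estimates lie above 0 in both fits, and *Cav1* moves from 0.77 to 0.10; in sgLkb1 against sgInert, *Hopx* moves from 0.98 to 1.45.

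*Ager* gave the narrowest interval among the called genes other than *Emp2*. In sgInert libraries it lay between 6.89 and 7.43 log2 CPM (median 7.04), in sgCebpa/b/d between 7.51 and 7.88 (median 7.69), and in the 5 sgLkb1 libraries at 7.14, 7.47, 7.55, 7.39 and 7.34. Every sgCebpa/b/d library was thus above every sgInert library, while 2 of the 5 sgLkb1 libraries were. The log2 fold change relative to sgInert was 0.58 in sgCebpa/b/d (95% interval 0.38 to 0.77, adjusted p = 0.000246) and 0.27 in sgLkb1 (0.06 to 0.48, adjusted p = 0.137). The difference between the targeted groups, 0.31, did not pass (adjusted p = 0.0845). Among libraries with MT animal numbers alone (3 sgInert, 4 sgCebpa/b/d and 3 sgLkb1, each from 2 animals), both increases passed, at 0.59 and 0.47 (adjusted p = 0.00157 and 0.0114). In that fit of 13674 genes, 4.30% were called higher and 4.25% lower in sgCebpa/b/d against sgInert, 3.61% and 3.36% in sgLkb1 against sgInert, and 3.68% and 3.30% in sgCebpa/b/d against sgLkb1. The sgLkb1 increase also passed without sgInert replicate 3 (adjusted p = 0.0473).

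*Pdpn*, the other surface protein, separated the groups most clearly. It lay between 2.37 and 4.77 log2 CPM in sgInert (median 3.76, 27 to 143 counts) and between 6.09 and 6.88 in sgCebpa/b/d (median 6.36, 210 to 696 counts). The 5 sgLkb1 libraries were at 3.61, 4.96, 5.57, 2.09 and 5.03, which spanned from below the lowest sgInert library to above the highest. All 7 sgCebpa/b/d libraries were above all 12 others. The log2 fold change was 2.52 against sgInert (1.72 to 3.33, adjusted p = 0.000147) and 1.82 against sgLkb1 (0.95 to 2.69, adjusted p = 0.0104). In sgLkb1 against sgInert it was 0.71 (-0.14 to 1.56, adjusted p = 0.381). Among MT-numbered libraries the increase over sgInert still passed (2.13, adjusted p = 0.0193), but the difference from sgLkb1 did not (1.49, 0.44 to 2.55, adjusted p = 0.0911).

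*Aqp5* and *Clic5*, the water channel and the chloride channel family member, were both higher in sgCebpa/b/d and not called in sgLkb1. *Aqp5* lay between 7.08 and 7.89 log2 CPM in sgInert (median 7.42), between 7.73 and 8.29 in sgCebpa/b/d (median 7.86) and at 7.83, 7.36, 7.69, 7.62 and 7.52 in sgLkb1. The sgInert and sgCebpa/b/d ranges overlapped, with 3 of 7 sgCebpa/b/d libraries above every sgInert library and 0 of 5 sgLkb1 libraries. Its log2 fold change relative to sgInert was 0.52 in sgCebpa/b/d (0.28 to 0.77, adjusted p = 0.00557) and 0.16 in sgLkb1 (-0.11 to 0.43, adjusted p = 0.566). The difference between the targeted groups was 0.36 (0.09 to 0.63, adjusted p = 0.119). Without the 5 unnumbered libraries the sgCebpa/b/d increase of *Aqp5* was 0.48 with an adjusted p of 0.0562. *Clic5* was between 8.39 and 9.26 log2 CPM in sgInert (median 9.01) and between 9.41 and 9.83 in sgCebpa/b/d (median 9.70). In sgLkb1 it was at 8.96, 9.01, 9.02, 8.72 and 8.78, inside the sgInert range. Its log2 fold change relative to sgInert was 0.70 in sgCebpa/b/d (0.44 to 0.97, adjusted p = 0.000756) and -0.05 in sgLkb1 (-0.33 to 0.24). The difference between the targeted groups was 0.75 (0.45 to 1.04, adjusted p = 0.00189), and it passed among MT-numbered libraries too (0.62, adjusted p = 0.0440). Without the 5 libraries that had no animal number, that difference was 0.62 with an adjusted p of 0.102.

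*Emp2* and *Akap5* were the members called in both targeted groups. *Emp2*, the tetraspan protein, changed by the smaller amount. Its sgInert libraries lay between 8.35 and 8.80 log2 CPM (median 8.50), its sgCebpa/b/d libraries between 8.78 and 9.03 (median 8.88), and its sgLkb1 libraries at 9.05, 8.91, 8.98, 9.28 and 8.86. All 5 sgLkb1 libraries and 6 of 7 sgCebpa/b/d libraries were above every sgInert library. The log2 fold change relative to sgInert was 0.31 in sgCebpa/b/d (0.12 to 0.49, adjusted p = 0.0299) and 0.44 in sgLkb1 (0.24 to 0.64, adjusted p = 0.00767), and the difference between them was -0.13 (-0.33 to 0.07, adjusted p = 0.512). The sgCebpa/b/d call was lost without any 1 of 6 libraries (sgInert replicates 2, 5, 6 and 7, and sgCebpa/b/d replicates 6 and 7), where the adjusted p reached 0.0672. It was also lost without the libraries that had no animal number (0.29, adjusted p = 0.138), when libraries of the same animal were summed (0.29, adjusted p = 0.111), by limma (adjusted p = 0.0861) and without a filter on low counts (adjusted p = 0.0615).

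*Akap5*, the kinase anchor, varied more between libraries than *Emp2*. *Akap5* lay between 6.24 and 7.68 log2 CPM in sgInert (median 7.18) and between 7.83 and 8.69 in sgCebpa/b/d (median 8.42), without overlap. The 5 sgLkb1 libraries were at 7.29, 8.61, 8.72, 8.08 and 7.27, so that the 3 MT-numbered ones were above every sgInert library and the 2 without a number were inside the sgInert range. The log2 fold change relative to sgInert was 1.13 in sgCebpa/b/d (0.62 to 1.63, adjusted p = 0.00365) and 0.92 in sgLkb1 (0.37 to 1.46, adjusted p = 0.0393). The targeted groups differed by 0.21 (-0.34 to 0.76, adjusted p = 0.737). The sgLkb1 call was lost without any 1 of 7 libraries, sgInert replicates 4 to 7 and sgLkb1 replicates 2 to 4, where the adjusted p reached 0.146. When libraries of the same animal were summed it was 0.77 with an adjusted p of 0.140. *Rtkn2* was the lowest member, with 14 to 227 counts. It lay between 1.40 and 4.58 log2 CPM in sgInert (median 2.49), between 3.41 and 5.26 in sgCebpa/b/d (median 4.16) and at 2.09, 2.97, 3.43, 2.81 and 2.32 in sgLkb1. One sgInert library, replicate 3, was above 5 of the 7 sgCebpa/b/d libraries. The log2 fold change in sgCebpa/b/d was 1.23 (0.36 to 2.10, adjusted p = 0.0672). Without sgInert replicate 3 it was 1.75 with an adjusted p of 0.00329, and among MT-numbered libraries, which exclude that library, 1.78 with an adjusted p of 0.00640. Without the unnumbered libraries it was 0.65 with an adjusted p of 0.512. In sgLkb1 it was -0.28 (-1.24 to 0.69), and 1.16 among MT-numbered libraries (adjusted p = 0.0815). The difference between the targeted groups, 1.51, passed when sgInert replicate 3 or 5 was left out (adjusted p as low as 0.0202, against 0.0620 with all libraries), but was 0.62 among MT-numbered libraries (adjusted p = 0.327) and 0.61 without the unnumbered ones (adjusted p = 0.692).

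*Hopx*, the transcriptional cofactor, differed with the kind of library title, in opposite directions in the targeted groups. In sgCebpa/b/d the kind of title went together with sex. It lay between 6.15 and 7.39 log2 CPM in sgInert (median 6.50). The 4 MT-numbered sgCebpa/b/d libraries were at 7.62, 8.04, 7.35 and 7.87 and the 3 of that group without a number at 9.24, 9.04 and 9.18. The 5 sgLkb1 libraries, all female, were at 7.37, 8.09, 7.80, 7.50 and 7.33. The first and the last of these had no number and were the lowest of the group. The sgInert and sgCebpa/b/d ranges overlapped by 1 library of each group. The log2 fold change relative to sgInert was 1.86 in sgCebpa/b/d (1.28 to 2.44, adjusted p = 0.000122) and 0.98 in sgLkb1 (0.37 to 1.60, adjusted p = 0.0517). Among MT-numbered libraries it was 1.38 in sgCebpa/b/d (1.00 to 1.75, adjusted p = 0.000264) and 1.45 in sgLkb1 (1.05 to 1.84, adjusted p = 0.00022). There the difference between the targeted groups was -0.07 (-0.42 to 0.28), where all libraries gave 0.87 (0.25 to 1.50, adjusted p = 0.100) and all but sgCebpa/b/d replicate 3 an adjusted p of 0.0427. The sgLkb1 increase lay near the threshold, and it passed in 8 of 12 alternative fits and without any 1 of 6 libraries (sgInert replicate 3 and sgCebpa/b/d replicates 1, 2, 3, 5 and 7), with adjusted p from 0.0223 to 0.145 over all omissions.

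*Cav1* was the member least like the others. It lay between 4.68 and 5.47 log2 CPM in sgInert (median 5.13) and at 4.85, 5.77, 4.91 and 5.17 in the MT-numbered sgCebpa/b/d libraries, but at 6.50, 6.45 and 6.44 in the 3 without a number. In sgLkb1 it was at 5.74, 5.22, 4.60, 5.67 and 6.50. With all libraries its fold change on the log2 scale was 0.77 for sgCebpa/b/d (0.18 to 1.36, adjusted p = 0.0912) and 0.56 in sgLkb1 (-0.08 to 1.19, adjusted p = 0.350). Leaving out sgCebpa/b/d replicate 1 or 3 brought the sgCebpa/b/d increase past the threshold, with an adjusted p as low as 0.0460. Summing libraries of the same animal did so too (0.99, adjusted p = 0.0294). With sex as a covariate *Cav1* was called in sgCebpa/b/d (0.76, adjusted p = 0.0332) and in sgLkb1 (0.99, adjusted p = 0.0267). Sex cannot be told apart from the kind of title in sgCebpa/b/d and did not vary in sgLkb1, so these values carry that limit. Of 12 alternative fits, *Cav1* was called in 2 for sgCebpa/b/d and in 1 for sgLkb1. Among MT-numbered libraries its log2 fold change relative to sgInert was 0.10 in sgCebpa/b/d (-0.44 to 0.65, adjusted p = 0.874) and 0.09 in sgLkb1 (-0.49 to 0.67, adjusted p = 0.898).

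Endothelial genes moved with the same libraries as *Cav1*, although the sort was set to exclude CD31-positive cells. The 8 endothelial genes of the list (*Pecam1*, *Cdh5*, *Ramp2*, *Kdr*, *Cldn5*, *Tie1*, *Emcn* and *Ptprb*) summed to 6.88 to 25.9 TPM in sgInert. They summed to 12.6 to 30.9 in MT-numbered and 102 to 127 in unnumbered sgCebpa/b/d libraries, and to 30.0 to 66.5 and 66.0 to 108 in the same kinds of sgLkb1 library. Against sgInert, 5 of 8 were called higher in sgCebpa/b/d (median log2 fold change 2.15), beside 4.73% of all genes. Among MT-numbered libraries 0 of the 6 tested were called (edgeR, median -0.07), with 0 at an unadjusted p under 0.05. In sgLkb1 1 of 8 was called higher (median 1.83), beside 2.81% of all genes. Among MT-numbered libraries 1 of 6 was called (median 1.00), *Emcn* (2.22, adjusted p = 0.0227), beside 3.61% of all genes. The sums of MT-numbered sgLkb1 libraries did not overlap those of MT-numbered sgInert libraries (9.73 to 24.6 TPM). The MT-numbered fit that called *Ager*, *Hopx*, *Emp2* and *Akap5* in sgLkb1 used those same libraries, and the part of endothelial RNA in them was not tested. Over all 12 alternative fits, *Ager* was called in sgLkb1 in 3 and *Hopx* in 8. These included fits of all libraries, such as that with sex as a covariate (edgeR adjusted p = 0.0455 and 0.000964). All sgLkb1 libraries were female, so that sex term rested on the other groups, and in sgCebpa/b/d it went with the kind of title. *Ramp2* and *Cldn5* had 0 counts in 3 sgInert libraries each. Across the 19 libraries the log2 CPM of *Cav1* and the mean of the 8 endothelial genes had a Pearson r of 0.854, and of 0.862 after the group means were subtracted. Within groups the same r was 0.571 for *Hopx*, 0.184 for *Rtkn2*, 0.157 for *Ager*, 0.031 for *Pdpn* and between -0.157 and -0.038 for *Aqp5*, *Emp2*, *Akap5* and *Clic5*. These values describe 19 libraries that share animals. The 7 members called in sgCebpa/b/d were also called among the MT-numbered libraries, where the endothelial sums of sgInert and sgCebpa/b/d overlapped. The part of endothelial RNA in these calls was not tested.

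**Figure D3:**
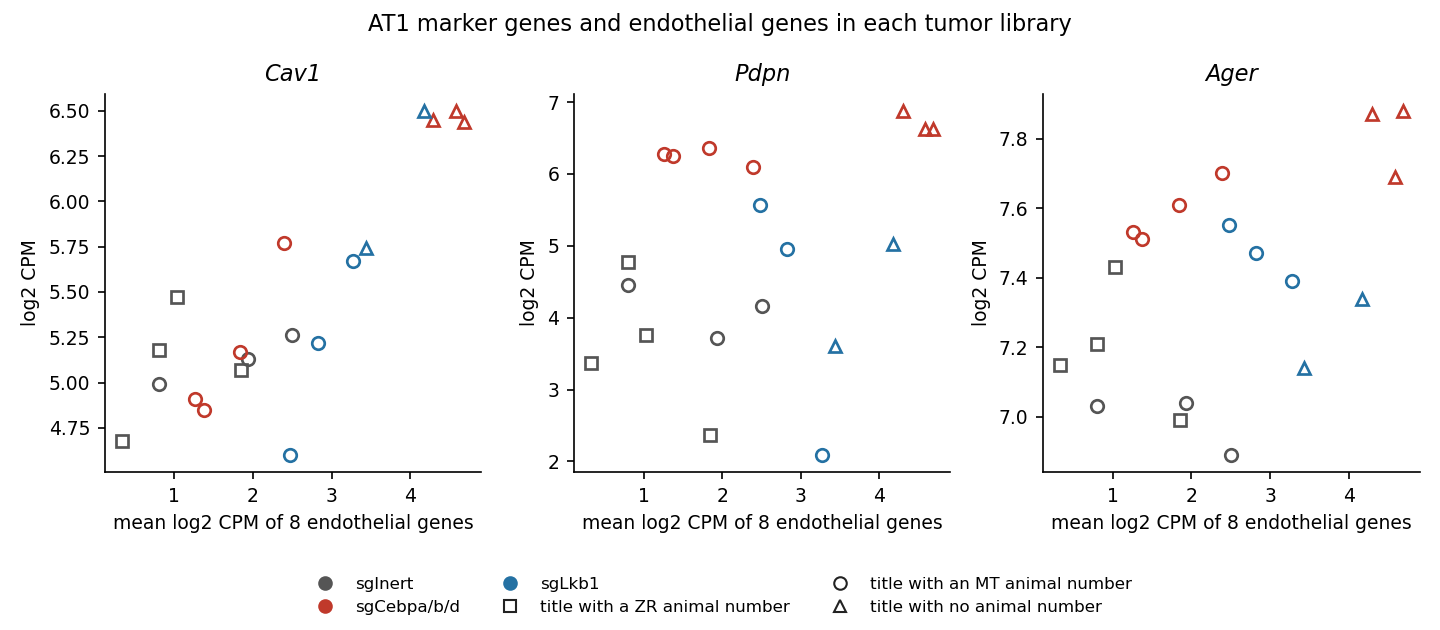
Log2 CPM of *Cav1*, *Pdpn* and *Ager* against the mean log2 CPM of 8 endothelial genes in the 19 libraries, coloured by group, with the marker shape giving the kind of library title. *Cav1* is at 6.44 to 6.50 in the 4 libraries with the highest endothelial means. *Pdpn* and *Ager* of the MT-numbered sgCebpa/b/d libraries are above sgInert libraries at like endothelial means, and the cause was not tested.

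Other cells that make *Pdpn* or *Cav1* were followed in the same way. The 7 fibroblast genes summed to 24.2 to 562 TPM in sgInert, 117 to 442 in sgCebpa/b/d, and in sgLkb1 274 to 675. In each targeted group 2 of 7 were called higher, beside 4.73% of all genes in sgCebpa/b/d and 2.81% in sgLkb1. Among MT-numbered libraries alone the sgInert sums were 24.2 to 32.4 TPM, with 6 of 7 fibroblast genes called higher in sgCebpa/b/d and 5 of 7 in sgLkb1, so there the AT1 marker increases and fibroblast genes moved together and the part of these cells was not tested. Sums for 3 lymphatic endothelial genes were 0.45 to 6.35 TPM in sgInert, 1.02 to 25.3 in sgCebpa/b/d, and in sgLkb1 3.99 to 17.1, with 0 of the 2 tested called by edgeR in either targeted group, 2 and 1 at an unadjusted p under 0.05, and 1 and 0 called by DESeq2. The defining gene *Prox1* had 0 counts in all 7 sgInert libraries and at most 32 in any other. Of 4 mesothelial genes, *Msln* was the one tested and rose in sgLkb1 (log2 fold change 3.17). *Wt1* had at most 1 count in any library. The 5 smooth muscle and pericyte genes summed to at most 14.2 TPM in any library and 6 immune genes to at most 43.5, and with all libraries 0 of either list were called against sgInert by edgeR. An unadjusted p under 0.05 was seen for 1 smooth muscle and 2 immune genes in sgCebpa/b/d, for 0 and 2 in sgLkb1, and DESeq2, as well as edgeR without a low-count filter, called 1 immune gene in sgCebpa/b/d. With sex as a covariate 2 immune genes were called in sgLkb1. Among MT-numbered libraries the pericyte gene *Pdgfrb* was called higher in sgCebpa/b/d (2.97, adjusted p = 0.0216) and in sgLkb1 (3.21, adjusted p = 0.0187). Of the 3 club cell genes 0 were called in sgCebpa/b/d by edgeR or DESeq2, 0 had an unadjusted p under 0.05, and 1 was lower in sgLkb1, and the 3 ciliated cell genes were too low to test.

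Lower levels of many AT2 genes went along with these increases. Of 13 AT2 genes, 9 fell and 0 rose in sgCebpa/b/d, with a median log2 fold change of -0.55, beside 5.36% of all genes called lower. Among MT-numbered libraries 7 fell, beside 4.25% of all genes, and *Slc34a2* (-0.19) and *Napsa* (-0.10) were not called. The surfactant protein genes *Sftpc* (-0.12), *Sftpa1* (0.02), *Sftpb* (0.10) and *Sftpd* (0.13) were not called there either. With all libraries *Sftpa1* (-0.33), *Sftpb* (-0.11), *Sftpd* (-0.09) and *Napsa* (-0.36) were not called. The smallest p-values were those of *Lyz2*, which encodes lysozyme (-3.52), *Abca3*, the lipid transporter of lamellar bodies (-1.33), *Hc*, complement component C5 (-1.58), and *Etv5*, a transcription factor of AT2 cells (-1.15). In sgLkb1, 9 fell and 0 rose as well, with a median of -0.56, beside 2.97% of all genes called lower. There *Hc* (-1.55), *Lyz2* (-1.94), *Lpcat1*, a surfactant lipid enzyme (-0.56), and *Sftpa1*, surfactant protein A (-1.08), had the smallest p-values. In sgLkb1 the number that fell was 8 among MT-numbered libraries, beside 3.36% of all genes. That number was 4 by limma and with title series as a covariate, 5 with animals summed, and 6 with length offsets or no filter. Relative to sgLkb1, the sgCebpa/b/d levels of *Abca3* (-0.87) and *Lyz2* (-1.58) were lower and that of *Sftpa1* (0.75) was higher. RSEM divides reads between *Lyz2* and its near-identical neighbour *Lyz1*, so the value of *Lyz2* is less certain. The mean log2 CPM of the 13 AT2 genes was 11.69 to 12.03 in sgInert, 10.32 to 11.31 in sgCebpa/b/d, and in sgLkb1 10.99 to 11.38. The mean of the 9 AT1 markers was 6.03 to 6.84, 7.05 to 7.87 and 6.56 to 7.04 in the same groups. AT2 means thus did not overlap between sgInert and either targeted group, and AT1 means did not overlap between sgInert and sgCebpa/b/d but did between sgInert and sgLkb1. Across the 19 libraries the 2 means had a Pearson r of -0.831 and of -0.539 after group means were subtracted. The members differed in this. Within groups the r with the AT2 mean was -0.788 for *Hopx*, -0.754 for *Cav1*, -0.413 for *Rtkn2* and -0.374 for *Ager*. It was between -0.15 and 0.148 for *Clic5*, *Akap5*, *Pdpn*, *Emp2* and *Aqp5*. The 3 unnumbered sgCebpa/b/d libraries had the lowest AT2 and the highest AT1 means of all 19.

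**Figure D4:**
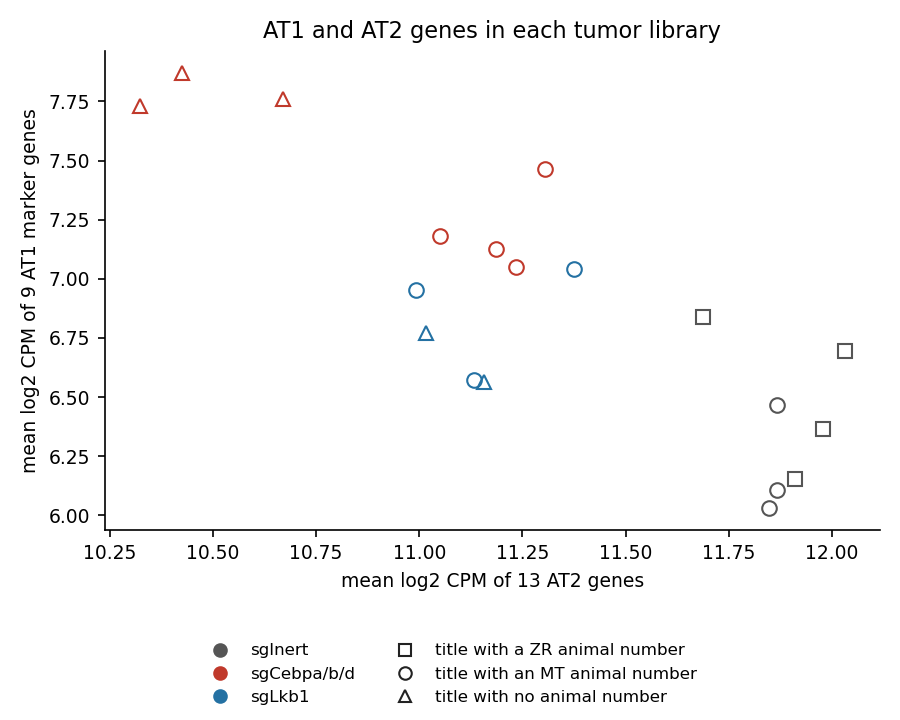
Mean log2 CPM of the 9 AT1 marker genes against that of 13 AT2 genes in each of the 19 libraries, coloured by group, with the marker shape giving the kind of library title. The sgInert libraries lie at 11.69 to 12.03 on the AT2 axis, and the 3 unnumbered sgCebpa/b/d libraries lie at the top left.

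A wider list of 19 genes reported in AT1 cells, of which 18 were tested, moved in the same direction in sgCebpa/b/d. Of these, 9 rose and 0 fell, with a median log2 fold change of 0.64, beside 4.73% of all genes called higher. The smallest p-values were those of *Col4a4* (1.22) and *Col4a3* (0.90), which encode basement membrane collagen chains, *Krt7*, a keratin (0.91), and *Sema3e*, a secreted semaphorin (1.26). In sgLkb1 3 rose, *Sema3e* (1.36), *Scnn1g*, a subunit of the epithelial sodium channel (0.91), and *Krt7* (0.61). The tetraspanin *Tspan8* fell (-0.71), and the median was 0.31, beside 2.81% of all genes called higher and 2.97% lower. Relative to sgLkb1, *Col4a4* (1.07), *Tspan8* (1.06), *Col4a3* (0.58) and the small heat shock gene *Cryab* (0.62) were higher in sgCebpa/b/d. Among MT-numbered libraries *Tspan8* alone of the list was called there (1.34), and *Col4a4* (0.60), *Col4a3* (0.24) and *Cryab* (0.42) were not. Against sgInert in the same fit, 12 of 18 rose in sgCebpa/b/d and 10 of 18 in sgLkb1, where 1 fell, beside 4.30% and 3.61% of all genes called higher. Transcription factors and cofactors known to act in AT1 cells formed a further list. Of *Nkx2-1*, *Gata6*, *Yap1*, *Wwtr1*, *Tead1* and *Klf5*, 1 was called in sgCebpa/b/d, *Wwtr1*, which encodes the YAP paralog TAZ (0.51, adjusted p = 0.0388), and 0 in sgLkb1 by edgeR or DESeq2 with all libraries, where *Wwtr1* (0.38) and *Tead1* (0.34), named after their values were seen, had an unadjusted p under 0.05. Both were called higher in sgLkb1 among MT-numbered libraries, *Wwtr1* at 0.77 (adjusted p = 0.0102) and *Tead1* at 0.58 (adjusted p = 0.0182).

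Genes of the state between AT2 and AT1 cells were followed as well. Of 11 tested, 3 rose and 1 fell in sgCebpa/b/d, beside 4.73% of all genes called higher and 5.36% lower. *Itgb6*, an integrin subunit that activates latent TGF-beta, rose by 0.96 on the log2 scale, *Krt18* by 0.59 and *Ctgf*, a target of YAP and TAZ, by 1.24, while the cell cycle inhibitor gene *Cdkn1a* fell by 0.61. In sgLkb1, 0 fell and 3 rose, namely *Fn1*, fibronectin (2.40), *Cdkn1a* (0.69) and *Krt18* (0.70), beside 2.81% of all genes called higher. Among MT-numbered libraries 6 rose and 1 fell in sgCebpa/b/d, and 7 rose in sgLkb1, beside 4.30% and 3.61% of all genes called higher. In the direct comparison *Cdkn1a* (-1.30) and *Fn1* (-1.29) were lower and *Itgb6* (0.65) was higher in sgCebpa/b/d, and among MT-numbered libraries *Itgb6* was not called (0.39, adjusted p = 0.0556). *Fn1* is also made by fibroblasts and endothelial cells, whose genes moved as given above.

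The members differed in how closely they followed each other across libraries. *Ager* and *Hopx* had the highest pairwise Pearson r of log2 CPM (0.911), followed by *Ager* with *Akap5* (0.885) and with *Rtkn2* (0.827). After group means were subtracted, these were 0.726, 0.797 and 0.812. *Pdpn* had an r of 0.770 with *Ager* over all libraries and of 0.306 within groups, and *Cav1* had an r of at most 0.634 with any member, that with *Hopx*. Among all other genes tested, those most like *Ager* by Pearson r over the 19 libraries were *Edn3* (0.922), *Sema3a* (0.914), *Bsg* (0.909), *Runx2* (0.909) and *Fxyd4* (0.904). *Edn3* encodes an endothelin, *Sema3a* a secreted semaphorin, *Bsg* the surface protein basigin, *Runx2* a Runt family transcription factor and *Fxyd4* a modulator of the sodium pump. Those most like *Hopx* were *Retnla* (0.933), a secreted resistin-like protein, *Aox1* (0.918), an aldehyde oxidase, *Slco3a1* (0.908), an organic anion transporter, *Gramd2* (0.908), a gene of the wider AT1 list, and *Fnbp1l* (0.904), a membrane-bending adaptor. Those most like *Cav1* were *Car4* (0.923), a carbonic anhydrase of lung capillary endothelium, *Cyyr1* (0.894), *Gm13212* (0.881), *Rgs1* (0.863), a regulator of G protein signaling, and *Clec9a* (0.856), a lectin receptor of dendritic cells. All of these values come from the same 19 libraries, which share animals and groups, and they were taken as the highest of all genes tested.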

How the data were processed

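RNA was sequenced from 19 libraries of sorted neoplastic cells, made with a Trio RNA-Seq kit. Per the labels, the authors aligned reads to mm10 with STAR 2.6.1d and deposited RSEM 1.2.30 expected counts and TPM per gene. Whether counting used strand is not given in the sources used here. The authors' tables of group comparisons (fold changes and p-values) and of DESeq2-normalized counts were not used. Expected counts were rounded and fitted in one edgeR 4.0.16 quasi-likelihood model (R 4.3.3) of all 19 libraries, with TMM scaling and edgeR's default expression filter, in place of the DESeq2 analysis of the study, which is an alternative. DESeq2 1.42.0, limma 3.58.1 on log2(TPM + 1), no filter, gene lengths, sex, title series, a replicate block, animals summed, and fewer libraries were tried. Log2 CPM used TMM library sizes. Some libraries shared an animal, and for those with no animal number this is not known. Except where animals were summed, the fits treated libraries as independent. Their p-values therefore measure the spread between libraries, part of it within animals, and not the spread between animals. The tests were first checked on simulated data for sgCebpa/b/d against sgInert. There edgeR recovered 54.08% of genes changed by 1 on the log2 scale and 84.69% of those changed by 2. It called 4 of 13475 unchanged genes. Simulated libraries were independent of each other, so the check did not cover shared animals, and smaller changes were not simulated. The members and gene lists were chosen with earlier results of these data known. Genes named from the lists were the called ones with the smallest p, up to 4 a list. A further allele that all groups shared is not reported here.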

Additional observations from a re-analysis of the deposited data

How the results depend on the processing

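Of the 9 AT1 markers, 6 to 8 were called in sgCebpa/b/d against sgInert when 1 library was left out at a time, with a median log2 fold change of 0.67 to 0.88. In sgLkb1 against sgInert 1 to 4 were called (0.28 to 0.48), and 4 of them without sgInert replicate 3. In sgCebpa/b/d against sgLkb1 2 to 3 were called (0.29 to 0.52). *Ager*, *Hopx*, *Pdpn*, *Akap5* and *Clic5* were called in sgCebpa/b/d against sgInert under all 12 alternative fits and all 19 omissions. With an absolute log2 fold change above 1 also required, 3, 0 and 1 were called in the 3 comparisons. In sgLkb1 against sgInert, where 2 were called, limma and the MT-numbered libraries each gave 4, sex as a covariate 5, and title series, the replicate block and animals summed 1 each. Sex did not vary in sgLkb1 and went with the kind of title in sgCebpa/b/d, which limits the fit with sex. In sgCebpa/b/d against sgLkb1, where 2 were called, the MT-numbered libraries gave 1, and leaving out libraries with no animal number gave 0 by edgeR, with 2 at an unadjusted p under 0.05. The cause was not tested.

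Some signs turned among values that were not called. *Rtkn2* in sgLkb1 against sgInert was 0.58 with sex, 0.76 with title series, 1.16 in MT-numbered libraries, 0.03 without unnumbered libraries and -0.50 to 0.24 with 1 library left out. *Clic5* there was 0.19 by limma, 0.09 with title series, 0.15 in MT-numbered libraries and -0.12 to 0.01 with 1 library left out. In sgCebpa/b/d against sgLkb1, *Hopx* was -0.07 and *Akap5* -0.32 in MT-numbered libraries and without unnumbered ones, and *Cav1* was -0.10 by limma and -0.23 with sex. Same-numbered libraries did not deviate together (r from -0.147 to 0.232), so the numbers do not pair them; with the replicate block 7, 1 and 2 markers were called, with medians of 0.73, 0.44 and 0.38. Limma on TPM moved the median of all genes to 0.18 in sgLkb1 against sgInert and -0.15 in sgCebpa/b/d against sgLkb1, and called 714 higher and 139 lower and 151 higher and 748 lower, against 393 and 416 and 396 and 437. Without unnumbered libraries 394 and 487, 244 and 281, and 225 and 230 genes were called higher and lower in the 3 comparisons, with sex 679 and 579 in sgLkb1 against sgInert, and with animals summed 217 and 249 in sgCebpa/b/d against sgLkb1. Low counts limited *Pdpn* (27 to 143 counts in sgInert) and *Rtkn2* (14 to 89).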
